A study of Mus musculus with 22 samples.

Results

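Gene expression in mouse embryonic stem cells (ESCs) treated with a compound labelled OICR was compared with that in cells labelled NC, across all genes. The comparison took 4 of the 22 libraries of the series, 2 labelled OICR and 2 labelled NC, chosen by the sample titles and the treatment labels. The other 18 libraries came from cells given Bromosporine, Chaetocin, CPTH2, DZNep, Garcinol, IOX1, MS023, UNC0379 or Valproate, 2 for each of 9 compounds. Every group used the same line, E14 of mouse ESCs, and the study's methods describe culture in serum with leukaemia inhibitory factor. No allele, transgene or knockdown was named for any of these groups. The labels gave no full name for OICR, no dose or time for any compound, and no account of what the NC cells received. Nothing in the labels said whether the 2 libraries of a group came from separate cultures, so the p-values below measure only the spread between libraries, which may be technical.

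ESCs are grown from the inner cell mass of the blastocyst and can form all tissues of the embryo. A small set of transcription factors, with Pou5f1, Sox2 and Nanog at its centre, keeps them in this state. In serum, single cells of such a culture drift between states, so markers of primitive endoderm, of germ cells and of the 2-cell embryo appear at low levels. ESCs also make their own basement membrane, a sheet of laminin, nidogen and type IV collagen, and they use threonine and serine at a high rate to feed one-carbon metabolism.

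The values are normalized read counts rounded to whole numbers. All 22 libraries have nearly the same distribution after the authors' normalization, whose middle value was 409 and whose top value was 221616, so the sequencing depth of each library is unknown and no counting interval can be given. The 2 OICR libraries listed 1381 and 1429 of 18487 genes at 0, and the 2 NC libraries 1380 and 1336. On the log2 scale the 2 OICR libraries correlated across tested genes at r = 0.936 and the 2 NC libraries at r = 0.944, within the 0.923 to 0.945 seen over the 11 groups. The cells carried the defining ESC markers in all 4 libraries. Pou5f1 was at 28606 and 29454 in NC against 35317 and 39262 with OICR, and Nanog was at 44793 and 59405 in NC against 49312 and 67576 with OICR. Of the 18 tested fibroblast and mesenchymal markers none was called. The summed level of the list was 233329 and 238943 in NC and 237294 and 237850 with OICR. Nearly all of it was Fn1 at the top value, which the normalization sets nearly alike in all libraries. The sum could therefore hardly differ between the groups. The NC libraries held 24 of Col1a1 each, the OICR libraries 23 and 27.

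Of 17275 tested genes, 67 (0.388%) were called changed with OICR, 22 higher (0.127%) and 45 lower (0.26%). A call needed an adjusted p below 0.05 from limma with Benjamini-Hochberg correction over all tested genes, and a fold above 2 on the log2(value + 1) scale. Of these 17275 genes, 1843 had an unadjusted p below 0.05 and 110 passed the adjusted threshold whatever their fold, 39 of them higher and 71 lower. The median log2 change of all tested genes was 0.0054. Among called genes above 0 in all 4 libraries with a group mean of at least 100, the largest fall was that of Serpinh1, the collagen chaperone of the endoplasmic reticulum. The falls also included Ggt1, Plxdc1 and Phgdh, the first enzyme of serine synthesis. The rises included Utf1, Foxd3 and Tdh, genes characteristic of undifferentiated ESCs, and Zfp57, which protects imprinted DNA methylation.

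**Figure D1:**
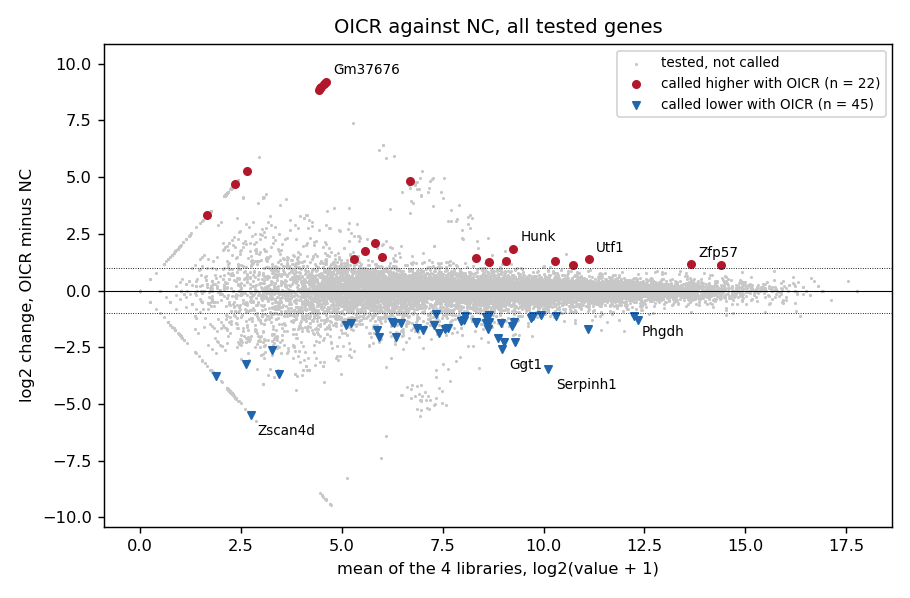
Log2 change of each of 17275 tested genes, OICR minus NC, against the mean of log2(value + 1) over the 4 libraries. Red circles are the 22 genes called higher, blue triangles the 45 called lower, grey points the rest and dotted lines a log2 change of 1 in either direction. Serpinh1 stands lowest among the genes of intermediate and high level, and the called genes at the upper left are those listed at 0 in both NC libraries.

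Each replicate number held 1 OICR and 1 NC library, so a change was also computed within number 1 and within number 2, with no test. All 67 called genes moved the same way within both numbers, as 10679 of all tested genes (61.8%) did. All 22 called rises were above 1 on the log2 scale within both numbers. Of the 45 called falls, 37 were below -1 within both. Over all tested genes 171 were above 1 within both numbers, 345 were below -1 within both, and 154 passed 1 in opposite directions. Across genes the changes within the 2 numbers correlated at r = 0.123, and at r = 0.0950 among the 13112 genes with a group mean of at least 100. Genes are not independent replicates, and the 4 libraries share their normalization. Whether they were prepared together is not stated. In no called gene did the OICR and NC libraries overlap, against 40.1% of all tested genes without overlap, 21.4% with OICR higher and 18.7% with OICR lower. Libraries that do not overlap must move the same way within both numbers. The calls were made from these same 4 libraries, so neither count is a separate check of them.

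**Figure D2:**
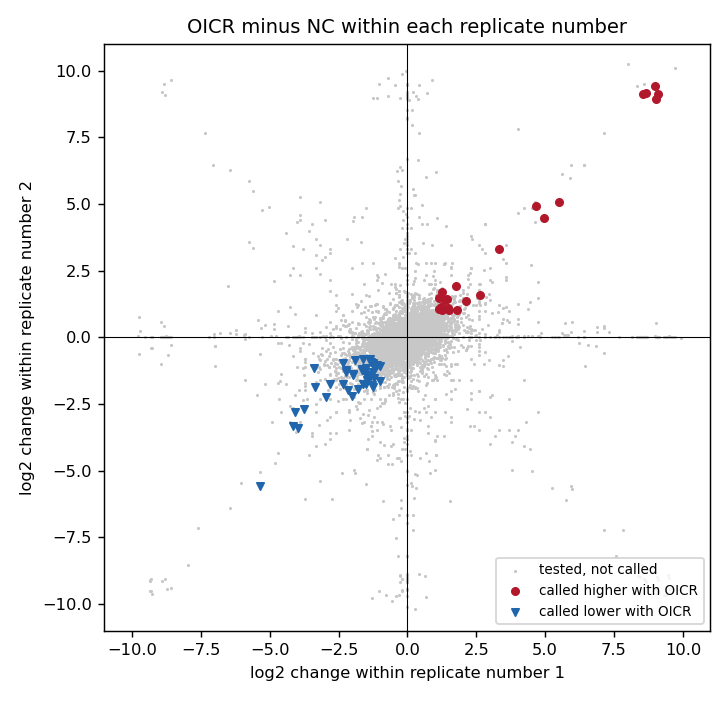
Log2 change OICR minus NC within replicate number 1 (horizontal axis) and within replicate number 2 (vertical axis) for each of 17275 tested genes. Red circles are genes called higher, blue triangles genes called lower and grey points the rest. All 67 called genes sit in the lower left or upper right quadrant, while the grey arms along the axes are genes that differed by a large fold within 1 number only.

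Serpinh1 (ENSMUSG00000070436, minus strand of chr7:99345376-99353239, GRCm38) encodes HSP47, the chaperone that binds newly made procollagen in the endoplasmic reticulum. It was at 4328 and 3096 in NC against 255 and 441 with OICR. The 18 libraries of the other compounds lay between 759 and 5395, with a median of 2371, so both OICR libraries were below all 20 others. This 10.9-fold fall, -3.44 on the log2 scale (SE 0.27, n = 2 libraries a group), had an adjusted p of 7.57e-05 by limma. Within number 1 it was -4.08 and within number 2 it was -2.81. When each of the 4 libraries was left out in turn the call stayed. It was lost when only the 4 libraries were fitted, where limma gave an adjusted p of 0.281 at the same log2 change. The 300 bases around its RefSeq start, 250 before and 50 after, on the minus strand of chr7:99353190-99353489 (GRCm38.p6), are shown because Serpinh1 had the largest called fall among genes above 0 in all 4 libraries and a group mean of at least 100.
Serpinh1: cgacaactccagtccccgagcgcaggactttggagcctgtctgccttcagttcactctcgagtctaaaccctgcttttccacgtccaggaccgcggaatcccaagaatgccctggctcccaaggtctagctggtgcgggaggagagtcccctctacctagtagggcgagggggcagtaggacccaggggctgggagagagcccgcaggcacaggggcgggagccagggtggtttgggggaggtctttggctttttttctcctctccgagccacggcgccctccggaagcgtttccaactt
None of the 7 motifs searched in all promoters (named below) occurs in this window, nor does TGATGNAA.

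Of the 21 tested genes of the collagen maturation list, 0 were called higher and 1, Serpinh1, was called lower. The list's median log2 change was -0.23, beside 0.0054 over all tested genes. In 10 of the 21 both OICR libraries were below both NC libraries (18.7% of all tested genes) and in 2 they were above both. Sparc, a secreted collagen-binding protein, was at 7573 and 6058 in NC against 4567 and 3816 with OICR (log2 change -0.70; limma, adjusted p = 0.182). P4hb, a subunit of prolyl 4-hydroxylase, was at 10319 and 11521 in NC against 10799 and 11077 with OICR. P3h4, which takes part in collagen modification in the endoplasmic reticulum, was not in the list and is named after its value was seen. It was at 457 and 333 in NC against 183 and 177 with OICR (log2 change -1.11, SE 0.22; limma, adjusted p = 0.0433, n = 2 a group), and the other 18 libraries lay between 193 and 447. The call of P3h4 was lost without any 1 of the 4 libraries, with limma adjusted p between 0.0507 and 0.463 and log2 changes between -1.34 and -0.88.

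Of the other named falls, 5 encode proteins of the cell surface, a grouping made after their values were seen. Ggt1 (plus strand of chr10:75561604-75586200), the enzyme that splits extracellular glutathione, was at 1695 and 891 in NC against 216 and 190 with OICR. Its log2 change was -2.60 (SE 0.30; limma, adjusted p = 0.00246, n = 2 a group). The NC libraries of Ggt1 differed more from each other than the OICR ones, but did not reach them. Plxdc1 (minus strand of chr11:97923238-97986444), a transmembrane receptor with a plexin domain, was at 1028 and 911 in NC against 254 and 199 with OICR. It fell by 2.10 on the log2 scale (SE 0.17; limma, adjusted p = 7.57e-05, n = 2 a group). Bcam, a receptor for laminin, was at 3869 and 4066 in NC against 986 and 1551 with OICR (log2 change -1.68). Its exons overlap those of Gm26600 on the other strand, and the counting was not stated to use strand. Atp1b2, a subunit of the sodium pump, was at 1625 and 1187 in NC against 229 and 354 with OICR (log2 change -2.28). Igsf21, an adhesion protein of the immunoglobulin superfamily, was at 120 and 93 in NC against 25 and 39 with OICR (log2 change -1.73). The limma adjusted p of Bcam, Atp1b2 and Igsf21 lay between 0.0172 and 0.0430. In these 5 genes every OICR library was below every NC library, by the widest margin on the log2 scale in Ggt1.

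Matk, a kinase that restrains Src family kinases, was at 196 and 136 in NC against 38 and 40 with OICR (log2 change -2.04). Synj2, an inositol phosphatase, was at 378 and 279 in NC against 107 and 72 with OICR (log2 change -1.88). Rap1gap2, which switches off the small GTPase Rap1, was at 844 and 603 in NC against 214 and 225 with OICR (log2 change -1.70). In these 3 genes both OICR libraries lay below both NC libraries. Phf19, a Polycomb-like protein that recruits Polycomb repressive complex 2, was at 347 and 320 in NC against 114 and 94 with OICR (log2 change -1.68). Myrf, a membrane-bound transcription factor, was at 254 and 216 in NC against 54 and 87 with OICR (log2 change -1.76). Secreted proteins were represented by Tinagl1, a matrix protein of basement membranes (2033 and 637 in NC, 193 and 287 with OICR, log2 change -2.27), and by Spock2, a proteoglycan (306 and 140 in NC, 59 and 71 with OICR, log2 change -1.66). In both the NC libraries were far apart and the OICR libraries close. Gm43938, a gene model with no entry in the annotation used, was at 142 and 105 in NC against 31 and 26 with OICR (log2 change -2.07). The limma adjusted p of these 8 genes lay between 0.00397 and 0.0461.

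Without 1 library, limma kept the calls of 11 of the 45 falls (OICR replicate 1 left out), 7 (OICR replicate 2), 5 (NC replicate 1) and 24 (NC replicate 2). The 14 named falls kept their direction without any 1 library. Of these 14, the calls held by limma were 6 without OICR replicate 1, 4 without OICR replicate 2, 3 without NC replicate 1 and 10 without NC replicate 2. Serpinh1, Ggt1 and Plxdc1 kept theirs in all 4 cases. When only the 4 OICR and NC libraries were fitted, none of the 14 named falls or the 12 named rises was called (limma, adjusted p of 0.0637 to 0.474). The log2 changes of the 14 lay between -3.05 and -1.35 without OICR replicate 1, between -3.84 and -1.54 without OICR replicate 2, between -3.20 and -1.10 without NC replicate 1 and between -3.69 and -1.65 without NC replicate 2.

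Some other called falls are named after their values were seen. The membrane-bound matrix metalloproteases Mmp14 and Mmp17 had log2 changes of -1.63 and -1.08. Adamts14, which trims procollagen, had one of -1.41, and Frem2, a basement membrane adhesion protein of the embryo, one of -1.16. Mmp17 was at 1673 and 1226 in NC against 660 and 696 with OICR, below all 20 other libraries. The secreted BMP antagonist Nog was at 26 and 12 in NC and at 1 in both OICR libraries, and Lbp, which binds bacterial lipopolysaccharide, was at 46 and 31 in NC and at 2 in both OICR libraries. Levels this low make the size of their fold depend on the pseudocount. The non-muscle myosin Myh14 was at 996 and 1062 in NC against 414 and 292 with OICR (log2 change -1.56), and the calcium-dependent membrane-binding protein Cpne5 was at 632 and 676 in NC against 243 and 254 with OICR (log2 change -1.39). H2-K1, a class I antigen-presenting molecule, was at 548 and 617 in NC against 256 and 297 with OICR (log2 change -1.07; limma, adjusted p = 0.0308, n = 2 a group). It was the 1 member called among 17 tested genes of interferon response and antigen presentation, whose median log2 change was 0.22. The calls of Cpne5 held without any 1 library, those of Lbp and Myh14 held in 3 of 4 cases, Mmp14 in 2, Mmp17, Adamts14, Frem2 and Nog in 1, and H2-K1 in 0, where the limma adjusted p of H2-K1 lay between 0.123 and 0.203. Of the 31-base stretches of H2-K1, 22.4% occur in other genes, so its value is uncertain.

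**Figure D3:**
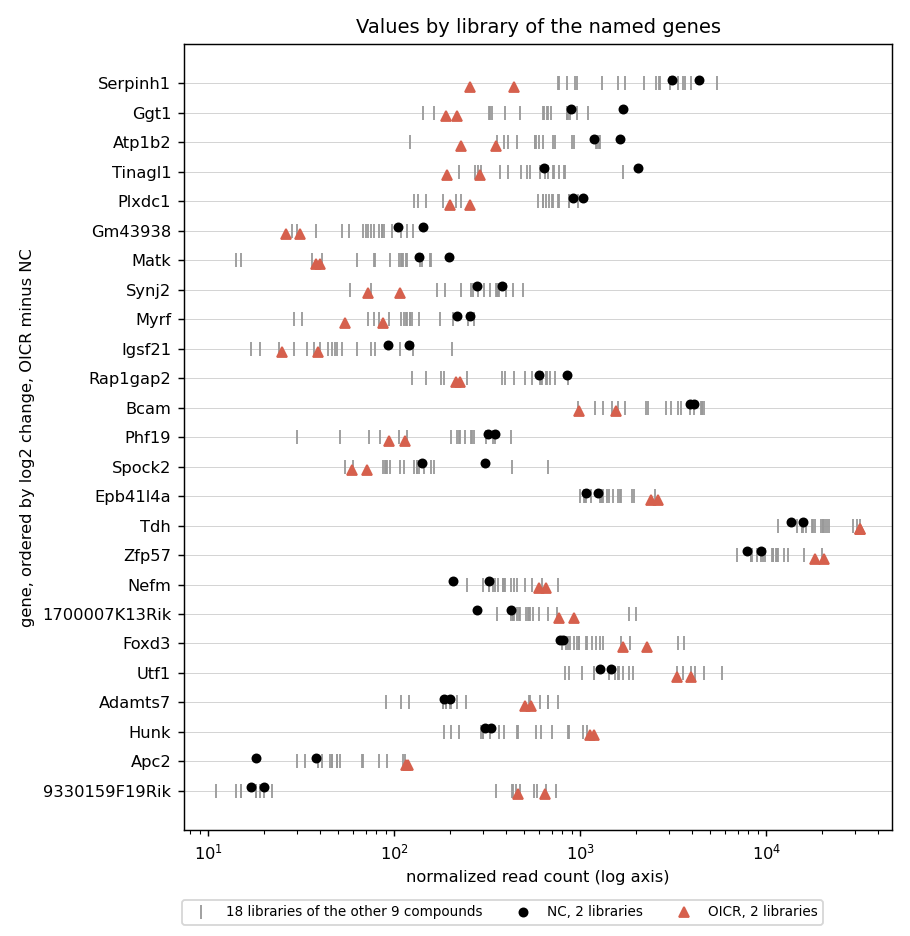
Normalized read count (log axis) in each library for the 14 named falls and 11 of the 12 named rises, ordered by log2 change. Black circles are the 2 NC libraries, red triangles the 2 OICR libraries and grey ticks the 18 libraries of the other 9 compounds. Both OICR libraries of Serpinh1 lie below every other mark, and both of Hunk lie above every other mark.

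The called rises had 12 genes above 0 in all 4 libraries with a group mean of at least 100. Utf1 (plus strand of chr7:139943789-139945112), a chromatin-bound factor restricted to undifferentiated ESCs and germ cells, was at 1283 and 1467 in NC against 3309 and 3915 with OICR. It rose by a log2 change of 1.39 (SE 0.23; limma, adjusted p = 0.0142, n = 2 a group). Foxd3 (plus strand of chr4:99656299-99658622), a forkhead factor needed to maintain pluripotent cells, was at 773 and 811 in NC against 1698 and 2269 with OICR (log2 change 1.31, SE 0.18; limma, adjusted p = 0.00530, n = 2 a group). Both genes lay outside the NC libraries by more than the spread of either group, yet other compounds reached higher, up to 5749 for Utf1 and 3607 for Foxd3. Tdh (chr14:63492347-63509092), the threonine dehydrogenase on which mouse ESCs rely, was at 13538 and 15816 in NC and at 31970 in both OICR libraries (log2 change 1.13). Zfp57 (plus strand of chr17:37001163-37010635), a zinc finger protein that keeps DNA methylation at imprinted loci, was at 7821 and 9304 in NC against 18362 and 20309 with OICR (log2 change 1.18, SE 0.15; limma, adjusted p = 0.00397, n = 2 a group). The list of 27 tested imprinted genes had 0 called in either direction and a median log2 change of -0.14. Of the 31-base stretches of Tdh, 24.7% occur in other genes, and its exons overlap Gm17232 on the other strand.

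Hunk (plus strand of chr16:90386013-90499553), a serine/threonine kinase related to AMPK, was at 329 and 308 in NC against 1126 and 1185 with OICR. The log2 change was 1.86 (SE 0.28; limma, adjusted p = 0.00955, n = 2 a group), and no other library of the series exceeded 1084. Apc2, a relative of the Wnt pathway scaffold APC, was at 18 and 38 in NC against 118 and 116 with OICR, and the other 18 libraries reached 114. The OICR libraries were thus the highest of the series in both genes, and the next highest group mean was that of DZNep for Hunk and of Bromosporine for Apc2. Adamts7, a secreted metalloprotease, was at 185 and 198 in NC against 507 and 543 with OICR (log2 change 1.45). Its exons overlap Tbc1d2b on the other strand, as those of Apc2 overlap 2310011J03Rik and those of Nefm overlap Nefl. Nefm, a neurofilament subunit, was at 207 and 322 in NC against 596 and 650 with OICR (log2 change 1.27), with 30.4% of its 31-base stretches found in other genes. Epb41l4a, of the band 4.1 family, was at 1078 and 1246 in NC against 2401 and 2629 with OICR (log2 change 1.12). The protein-coding gene 1700007K13Rik was at 278 and 426 in NC against 768 and 921 with OICR (log2 change 1.29). The limma adjusted p of the 12 rises lay between 0.00397 and 0.0334.

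Without 1 library, limma kept the calls of 5 of the 22 rises (OICR replicate 1 left out), 2 (OICR replicate 2), 3 (NC replicate 1) and 13 (NC replicate 2). All 12 named rises kept their direction without any 1 library. Their calls held by limma were 3 without OICR replicate 1 (Adamts7, Foxd3 and Zfp57), 0 without OICR replicate 2, 1 without NC replicate 1 (Zfp57) and 9 without NC replicate 2. The highest adjusted p among them was 0.158, 0.230, 0.319 and 0.142 in these 4 cases. Log2 changes of the 12 lay between 1.13 and 5.05 without OICR replicate 1, between 1.05 and 4.57 without OICR replicate 2, between 0.95 and 4.70 without NC replicate 1 and between 1.22 and 4.92 without NC replicate 2.

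Genes that were at 0 in some libraries and well expressed in others need separate reading. 9330159F19Rik, an uncharacterized protein-coding gene, had the largest of the named rises, from 17 and 20 in NC to 461 and 645 with OICR. Over the other 18 libraries it ranged from 11 to 742 with a median of 186.5. Of the 22 genes called higher, 8 were listed at 0 in both NC libraries. Gm37676 was at 510 and 687 with OICR, Olfr1254 at 548 and 564, and Gm24909 at 516 and 486. Gm37676 and Gm24909 were listed at 0 in all 20 other libraries, and their calls held without any 1 library, while that of Olfr1254 held in 0 of 4 cases (limma, adjusted p of 0.107 to 0.266). All 31-base stretches of Gm37676 occur in another gene, since it lies opposite to Nucks1. Over the series, 348 tested genes were at 0 in at least 1 library and above 200 in every library where they were not at 0, and 8 of these had both NC libraries at 0 and both OICR libraries above 200. Another 8 had the reverse, and in 170 of the 348 genes 1 library of NC or OICR was at 0 and its partner above 200. The median GC content of the 318 with a placed transcript was 37.9%, against 48.7% over all tested genes. Of the 348 genes, 5 were called.

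The integrated stress response is the program in which the factor ATF4 induces amino acid transporters and enzymes of serine, asparagine and one-carbon metabolism. Of the 20 tested genes of this list, 0 were called higher and 1, Phgdh, was called lower, and 18 of the 20 had a log2 change below 0. In 15 of 20 both OICR libraries were below both NC libraries, beside 18.7% of all tested genes, and in 1 they were above both. The list's median log2 change was -0.68 (-0.83 within number 1 and -0.62 within number 2), beside 0.0054 over all tested genes. Over 11 alternatives the median lay between -0.85 and -0.42. The members were chosen with earlier results of these data known.

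Phgdh (minus strand of chr3:98313170-98339990), the first enzyme of serine synthesis, was at 7894 and 6544 in NC against 2968 and 3713 with OICR (log2 change -1.11, SE 0.14; limma, adjusted p = 0.00380, n = 2 a group). Its adjusted p stayed below 0.05 without any 1 library, while its log2 change was -0.95 without OICR replicate 1 and -0.98 without NC replicate 1, short of the fold. Of its 31-base stretches 74.1% occur in other genes, so its value is uncertain. Shmt2, which makes glycine from serine in mitochondria, was at 13304 and 12341 in NC against 8293 and 8602 with OICR. Cebpb, a transcription factor of stress responses, was at 529 and 582 in NC against 242 and 340 with OICR. Shmt2 and Cebpb passed the adjusted p but not the fold, with log2 changes of -0.60 and -0.95 (limma, adjusted p = 0.0312 and 0.0379). In all 3 genes both OICR libraries were below both NC libraries. Shmt2 and Cebpb did not pass without any 1 library (limma, adjusted p of 0.0748 to 0.299 and 0.0618 to 0.290). Chac1, which degrades glutathione, was at 1526 and 1195 in NC against 612 and 603 with OICR, with a log2 change of -1.15 that did not pass (limma, adjusted p = 0.426). Mthfd2, of mitochondrial folate metabolism, was at 11454 and 7031 in NC against 4685 and 4190 with OICR (adjusted p = 0.304 by limma). Atf4 itself was at 13581 and 10004 in NC against 8693 and 6837 with OICR (adjusted p = 0.568 by limma). Ggt1 acts on glutathione as Chac1 does, but was in no list. The 2 members above 0 were Asns, the asparagine synthetase (67756 and 54023 in NC, 59584 and 67756 with OICR), and Sesn2, a stress-induced inhibitor of mTORC1 (6377 and 5658 in NC, 6692 and 8464 with OICR).

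The list was made up of genes of the ATF4 program, so its share of the ATF4 element describes the list and not OICR. That element reads TGATGNAA in one orientation. It was searched on both strands after the values of the list had been seen, in RefSeq windows of 300 bases (250 before and 50 after a start, GRCm38.p6). It occurred in 7 of the 17 members with a window, namely Asns, Atf3, Chac1, Nupr1, Slc7a11, Trib3 and Vldlr, and in 3.08% of the 11823 tested genes with a window. A match is a run of letters and not a bound site. Of these members 4 are shown, 3 with the lowest or near lowest log2 changes of the list and Asns as a member whose OICR and NC libraries overlapped, with the matches to TGATGNAA in capitals in the orientation of the gene.
Chac1, plus strand of chr2:119350992-119351291: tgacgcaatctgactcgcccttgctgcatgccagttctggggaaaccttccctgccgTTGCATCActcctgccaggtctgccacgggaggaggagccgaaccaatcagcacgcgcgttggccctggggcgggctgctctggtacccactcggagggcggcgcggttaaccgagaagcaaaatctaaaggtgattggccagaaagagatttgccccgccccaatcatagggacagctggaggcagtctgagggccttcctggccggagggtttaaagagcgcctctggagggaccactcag
Nupr1, minus strand of chr7:126625421-126625720: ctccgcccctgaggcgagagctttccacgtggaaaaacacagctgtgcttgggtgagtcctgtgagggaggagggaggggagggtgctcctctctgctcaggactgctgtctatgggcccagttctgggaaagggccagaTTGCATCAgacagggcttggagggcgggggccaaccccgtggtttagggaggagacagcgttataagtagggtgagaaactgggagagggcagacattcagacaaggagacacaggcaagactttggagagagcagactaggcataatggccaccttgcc
Atf3, minus strand of chr1:191183284-191183583: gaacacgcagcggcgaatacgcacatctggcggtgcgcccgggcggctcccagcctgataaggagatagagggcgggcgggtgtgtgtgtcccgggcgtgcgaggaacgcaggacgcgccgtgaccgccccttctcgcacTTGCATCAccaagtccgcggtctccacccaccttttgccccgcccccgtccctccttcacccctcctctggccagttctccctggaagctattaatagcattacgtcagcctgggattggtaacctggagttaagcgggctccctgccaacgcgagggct
Asns, minus strand of chr6:7693160-7693459: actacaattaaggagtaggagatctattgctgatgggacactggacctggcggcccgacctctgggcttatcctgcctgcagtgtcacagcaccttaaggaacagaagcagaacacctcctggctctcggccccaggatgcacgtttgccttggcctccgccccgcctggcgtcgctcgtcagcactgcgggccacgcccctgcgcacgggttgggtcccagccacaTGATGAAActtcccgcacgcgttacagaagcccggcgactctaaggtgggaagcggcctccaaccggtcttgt
The matches in Chac1, Nupr1 and Atf3 have the same 8 letters, and the match in Asns is another form on the opposite strand. Nupr1, a stress-induced chromatin protein, was at 2392 and 1395 in NC against 986 and 659 with OICR (log2 change -1.18; limma, adjusted p = 0.665). Atf3, a stress-induced transcription factor, was at 581 and 516 in NC against 250 and 319 with OICR (log2 change -0.95; limma, adjusted p = 0.131).

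Of the 22 tested p53 targets 0 were called in either direction, and 13 had both OICR libraries above both NC libraries, beside 21.4% of all tested genes. Their median log2 change was 0.26. Ccng1, a cyclin induced by p53, was at 9098 and 8718 in NC against 15007 and 15924 with OICR (log2 change 0.80; limma, adjusted p = 0.224). Mdm2, which degrades p53, was at 3393 and 3160 in NC against 4493 and 4513 with OICR (log2 change 0.46; limma, adjusted p = 0.571). Cdkn1a, which arrests the cell cycle, was at 6054 and 5364 in NC and at 5136 in both OICR libraries. Of the 22 members, 18 had a log2 change above 0 and 4 one below 0. Pmaip1 and Gdf15 were among the 4, at log2 changes of -0.93 and -0.83.

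Of the 58 tested genes for proteins of the cytosolic ribosome none was called, and 27 of 58 had both OICR libraries below both NC libraries, beside 18.7% of all tested genes. The median log2 change was -0.17, and over 11 alternatives it lay between -0.31 and -0.10. Rpl6, of the large subunit, was at 59550 and 67722 in NC against 33781 and 32104 with OICR (log2 change -0.95, SE 0.12; limma, adjusted p = 0.00397, n = 2 a group), and the other 18 libraries lay between 49504 and 67722. Both NC libraries had Rpl9 at 35221, and OICR had it at 24664 and 21827 (log2 change -0.60; limma, adjusted p = 0.0343). Both genes lay below all other libraries of the series and under the fold needed for a call. Rpl6 passed the adjusted p in 3 of 4 cases when 1 library was left out (0.0618 without OICR replicate 2, by limma) and Rpl9 in 0. Both NC libraries had Rpl7 at 123367, and OICR had it at 59405 and 53841 (log2 change -1.12; limma, adjusted p = 0.0649). Ribosomal protein genes have many processed copies in the genome, so their counts are uncertain.

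Few pluripotency genes were called. Among 15 core and formative genes 2 were called higher, Utf1 and Foxd3, and 0 lower, with a median log2 change of 0.16. Over all tested genes 0.127% were called higher and 0.26% lower. Of the 15, 9 had a log2 change above 0 and 6 one below 0. None of 20 naive genes was called, and their median was 0.05. Pou5f1 had a log2 change of 0.36 (SE 0.093; limma, adjusted p = 0.114, n = 2 a group), with both OICR libraries above both NC libraries. Of the 31-base stretches of Pou5f1 22.8% occur in other genes. Nanog had a log2 change of 0.16 and Sox2 one of 0.13 (limma, adjusted p = 1 and 0.935). The direction of Nanog turned without OICR replicate 2 (-0.065) and without NC replicate 1 (-0.041), and that of Sox2 without NC replicate 2 (-0.052). Klf4 was at 4590 and 3429 in NC against 5190 and 5162 with OICR (log2 change 0.38; limma, adjusted p = 0.574). Myc was low, at 4 and 19 in NC against 28 and 54 with OICR.

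Lists of other cell states gave 1 call. Of 21 tested genes of the 2-cell stage, Zscan4d was called lower, from 40 and 47 in NC to 0 in both OICR libraries (limma, adjusted p = 0.0115, n = 2 a group). With 1 library left out its adjusted p was 0.0590 to 0.117. Since both OICR libraries were at 0, the size of its fitted change depends on the pseudocount, and with a pseudocount of 10 the call was lost (log2 change -2.42; limma, adjusted p = 0.117). Both Bromosporine libraries were also at 0 for Zscan4d, and the 18 libraries of the other compounds ranged from 0 to 184 with a median of 23. Of Zscan4d 65.0% of the 31-base stretches occur in other genes. In 11 of the 21 both OICR libraries were below both NC libraries (18.7% of all tested genes), and in 1 they were above both (21.4%). The median log2 change of the list was -1.87 (-2.78 within number 1 and -0.40 within number 2), beside 0.0054 over all tested genes, and it lay between -2.20 and -0.70 over 11 alternatives. The sum over the list went otherwise, at 7021 and 7349 in NC and 8735 and 7323 with OICR. Of 18 tested primitive endoderm genes none was called, 9 had OICR below NC in all libraries (18.7% of all tested genes) and 3 had it above (21.4%). Their median log2 change was -0.48, and between -0.64 and -0.14 over 11 alternatives. Gata6, which specifies primitive endoderm, was at 192 and 115 in NC against 17 and 77 with OICR (limma, adjusted p = 0.306), while Gata4 was at 156 and 154 in NC against 111 and 139 with OICR. The basement membrane list, which shares 6 genes with it, had 0 of 15 called and a median log2 change of -0.43, which lay between -0.59 and -0.18 over 11 alternatives. Its laminin chain Lamb1 was at 2081 and 1690 in NC against 1143 and 1009 with OICR (limma, adjusted p = 0.195), and Lama5, another laminin chain, was at 5714 and 6412 in NC against 11035 and 9086 with OICR (limma, adjusted p = 0.0921). Col4a1, of type IV collagen, was at 257 and 265 in NC against 130 and 223 with OICR. Among 24 germline genes none was called, 12 had OICR below NC in all libraries (18.7% of all tested genes) and 1 had it above (21.4%). Their median log2 change was -0.25, with -0.52 within number 1 and -0.072 within number 2. Stra8, which starts meiosis, was at 1159 and 1067 in NC against 59 and 179 with OICR, a log2 change of -3.42 that did not pass (limma, adjusted p = 0.347). Sycp3, of the synaptonemal complex, was at 2266 and 2202 in NC against 1436 and 1472 with OICR (log2 change -0.62; limma, adjusted p = 0.0379), and its adjusted p was 0.104 to 0.291 with 1 library left out. In bulk samples fewer cells of a type and less RNA per cell cannot be told apart.

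**Figure D4:**
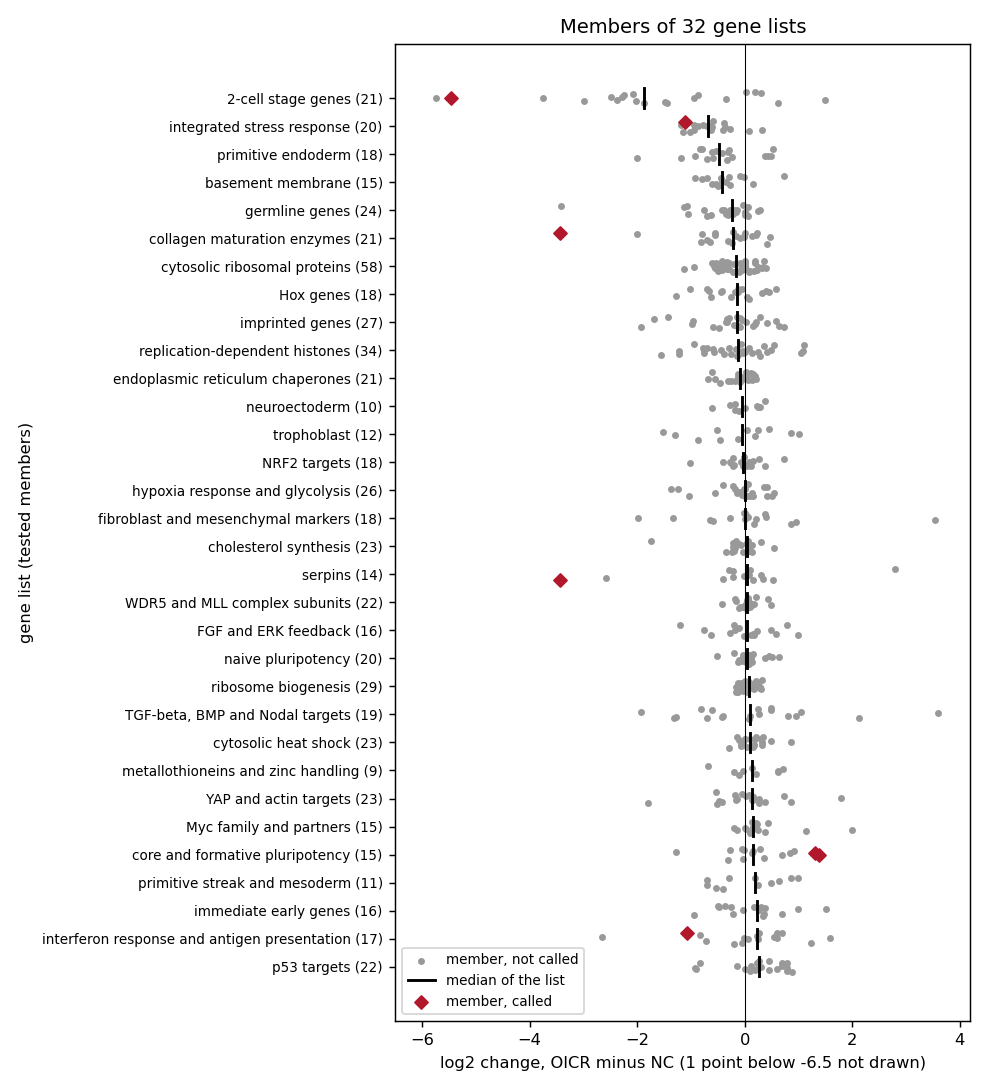
Log2 change OICR minus NC of each tested member of 32 gene lists (points), with the number of tested members after each name. Black bars are list medians, red diamonds called members and grey points the rest, and the lowest member lies below the axis and is not drawn. Medians of the 2-cell, integrated stress response, primitive endoderm and basement membrane lists lie farthest below 0, and that of p53 targets lies highest.

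The remaining lists gave few calls. Of 22 subunits of the WDR5 and MLL complexes, which methylate lysine 4 of histone H3, 0 were called and the median log2 change was 0.05. Wdr5 was at 12053 and 12808 in NC and at 16767 in both OICR libraries (log2 change 0.43, SE 0.12; limma, adjusted p = 0.132, n = 2 a group). Hsf1, the main heat shock factor, was at 1407 and 1306 in NC against 1420 and 1362 with OICR. The 23 cytosolic heat shock genes and the 21 chaperones of the endoplasmic reticulum had 0 calls, with median log2 changes of 0.10 and -0.09. Serpinh1 was the 1 gene called among 14 tested serpins. Serpinf1, a secreted serpin, was at 229 and 214 in NC against 22 and 59 with OICR, with a log2 change of -2.58 that did not pass (limma, adjusted p = 0.0821). Of 26 genes of hypoxia response and glycolysis 0 were called, and their median was 0.00385. Vegfa, the vascular growth factor, was at 6164 and 3822 in NC against 1878 and 1850 with OICR (limma, adjusted p = 0.0578). Metallothioneins Mt1 and Mt2 had log2 changes of 0.63 and 0.71, with adjusted p of 0.264 and 0.517 by limma. Smad7, which restrains TGF-beta signals, was at 1473 and 1293 in NC against 2278 and 2560 with OICR and passed the adjusted p but not the fold (log2 change 0.81; limma, adjusted p = 0.0308, and 0.0914 to 0.270 with 1 library left out). No member was called among the lists of Myc partners, NRF2 targets, cholesterol synthesis, ribosome biogenesis, replication-dependent histones, imprinted genes or Hox genes. The same held for YAP targets, immediate early genes, FGF feedback, TGF-beta targets, metallothioneins, trophoblast, neuroectoderm and primitive streak. Median log2 changes of these lists lay between -0.15 and 0.22. Only 34 of the 57 listed histones were tested. The histone list summed to 1143 and 1671 in NC and 1045 and 1570 with OICR, so its lack of calls says little.

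The levels under OICR were then set against the mean of the other 9 compounds, a comparison that shares the OICR libraries with the one against NC. In it 31 genes (0.179%) were called, 8 higher and 23 lower. The median log2 change of the 45 falls was -1.53 against NC and -0.93 against the other compounds, and that of the 22 rises was 1.80 and 0.87. OICR had the lowest mean of the 11 groups in 17 of the 45 falls, and NC had the highest in 12. For the rises OICR had the highest mean in 8 of 22 and NC the lowest in 12. Both OICR libraries were below all 20 others in 8 of the 45 falls (0.359% of all tested genes), namely Serpinh1, P3h4, Mmp17, Lbp, Nog, Mogat2, Pgpep1l and Gm3629. Both were above all 20 others in 4 of the 22 rises (0.446% of all tested genes), namely Hunk, Apc2, Gm24909 and Gm37676. Both NC libraries stood above all 20 others in 1 of the 45 falls (0.11% of all tested genes) and below them in 0 of the 22 rises (0.0579%). The falls and rises were chosen on these same OICR and NC values, which raises such counts above the share of all genes. The counts are therefore no test of what is particular to OICR.

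Bromosporine, Valproate and MS023 were compared with OICR directly, with the same OICR libraries in all 3 comparisons. The doses and times of the 4 compounds were not given, so the values below set 1 treatment beside another and not compounds at matched doses. Of the 45 falls, 3 were also called lower than with Bromosporine, 20 than with Valproate and 36 than with MS023, and of the 22 rises 7, 8 and 14 were called higher. Over all tested genes 240 (1.39%), 1134 (6.56%) and 555 (3.21%) were called between OICR and these 3 compounds. Acoxl was called higher with OICR than with Bromosporine, and Mmp14 higher than with Valproate, against their falls from NC. Bromosporine gave 769 and 759 for Serpinh1 and Valproate 941 and 847, and OICR lay lower by a log2 change of -1.18 (SE 0.27) and -1.41 (limma, adjusted p = 0.0407 and 0.00445). MS023 left Serpinh1 at 3661 and 5395, overlapping the NC libraries. Ggt1 was at 142 and 164 with Bromosporine, where the difference from OICR was 0.41 (SE 0.30; limma, adjusted p = 0.712), and at 955 and 1095 with MS023. For Utf1 the Bromosporine libraries stood at 4117 and 3935 and those of Valproate at 3558 and 3309, differing from OICR by -0.16 and 0.07 (SE 0.23 each), and at 1182 and 868 with MS023. For Zfp57 the values were 10812 and 13125 under Bromosporine, 6970 and 8400 under Valproate, so OICR was higher by 0.70 and 1.34 (SE 0.15 each; limma, adjusted p = 0.0283 and 1.36e-04). Hunk differed by 0.42 (SE 0.28) from Bromosporine (868 and 859) and by 2.50 from MS023 (185 and 223). The Bromosporine mean was below that of OICR in 18 of the 45 falls, the DZNep mean in 18 and the Valproate mean in 10, and for the other 6 compounds this held in 0. Among the 22 rises the DZNep mean was above that of OICR in 10, the UNC0379 mean in 5 and the Bromosporine and Valproate means in 4 each. The MS023 mean was above it in 2, and those of Chaetocin, CPTH2, Garcinol and IOX1 in 1 each. DZNep gave 2001 and 1828 for 1700007K13Rik and 671 and 672 for Adamts7, and was not tested directly against OICR.

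The called falls shared a composition that the limma fit did not use. Of the 45 falls 44 (97.8%) were annotated as protein coding, against 84.3% of tested genes. The median GC content of the longest transcript was 55.6% for the falls, 49.0% for the 21 placed rises and 48.7% for all tested genes. Over 5 equal bins of tested genes by rising GC, the falls numbered 1, 1, 2, 14 and 26 and the rises 8, 1, 2, 4 and 6. The median log2 change of all genes in these 5 bins lay between -0.0062 and 0.023. Chromosome 7 held 9 of the 44 placed falls (20.5%) and 7.93% of tested genes, and chromosome 11 held 7 (15.9%) and 7.33%, a grouping looked at after the genes were known. The part of GC content and position in the calls was not tested. The study's methods give a GC content for transposable elements, which were normalized together with genes. Whether the values used here were adjusted for GC before the fit is not stated. Of the called genes 34 falls and 14 rises had a RefSeq promoter window. CCAAT on either strand occurred in 15 of the 34 falls (44.1%) and 4 of the 14 rises (28.6%), beside 43.6% of the windows of 11823 tested genes. TATAAA occurred in 5 of the 34 (14.7%) and 4 of the 14 (28.6%), beside 9.93%, and CACGTG in 3 (8.82%) and 2 (14.3%), beside 11.2%. GAANNTTC, the paired heat shock unit, occurred in 1 of each (2.94% and 7.14%), beside 7.27%. TGACGTCA occurred in 1 and 2, TGACTCA in 0 and 1 and the YY1 motif in 0 of both, beside 3.32%, 4.70% and 3.33% of windows. TGATGNAA, the ATF4 element, occurred in 2 of the 34 falls (5.88%) and 2 of the 14 rises (14.3%), beside 3.08%.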

How the data were processed

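Messenger RNA of 22 libraries of E14 mouse ESCs, 2 for each of 11 groups, was enriched with oligo-dT beads before library preparation, per the labels. The deposited values are scores, here read counts that the authors normalized and rounded to whole numbers. No compound treatment is described in the methods of the paper, whose RNA-seq processing was assumed to apply here. For gene expression they give Bowtie2 and RSEM on an index of the ENSEMBL transcriptome and EDASeq with full quantile normalization, and they state that libraries correlating poorly with their replicates were removed. The submitters' processing notes name bcl2fastq, Bowtie2 2.2.5, RSEM and the mm10 build. Full quantile normalization gives all libraries nearly 1 distribution, which hides depth and any shift of all genes at once. High values recur exactly between genes and libraries, as 31970 did for Tdh with OICR and for Nanog with CPTH2. Equal values in the libraries of a group are therefore no measure of its spread. The deposited table of group means was not used. Whether counting used strand is not given in the sources used here.

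Groups came from the sample titles. Values were taken as log2(value + 1). A gene was tested if 2 or more of the 22 libraries reached 10, which held for 17275 of 18487. limma 3.58.1 in R 4.3.3 fitted 11 group means to all libraries with a mean-variance trend in eBayes and 11 residual degrees of freedom. P-values are two-sided, with Benjamini-Hochberg adjustment over all tested genes. A fold change is on the log2(value + 1) scale and understates the change of low genes. The fit was tested on simulated data with known changes.

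Genes were named by a rule, among called genes above 0 in the 4 libraries, with a group mean of at least 100, the same direction within both replicate numbers and no overlap, the 14 largest falls and up to 14 rises (12 qualified). Called members of 32 gene lists and 10 genes fixed by name were added, and called genes with a 0 were limited to 3 examples. Other genes are named as chosen after their values were seen. The comparison, the genes and the lists were chosen with earlier results of these data known. Lists are described by counts and medians only. Counts of called members are to be read beside the shares over all tested genes, 0.127% called higher and 0.26% called lower. Positions, transcripts and sharing of 31-base stretches between genes came from GENCODE M21 (GRCm38), and promoter windows from RefSeq (GRCm38.p6). Sharing was checked for 65 of the 67 called genes, and 8 of these had more than 20% of their stretches in other genes. Beside the overlaps given above, exons of Synj2, Myh14, Cpne5, Mogat2, Pou5f1 and Col4a1 overlap another gene on the other strand. Those of 9330159F19Rik and Foxd3 overlap another gene on the same strand. Alternatives were a pseudocount of 10, no filter, only the 4 libraries, a replicate block, median-ratio scaling, the other 9 compounds as reference, no trend and each library left out. Values of 1 named rise and of 1 other gene are not reported here.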

Additional observations from a re-analysis of the deposited data

How the results depend on the processing

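The count of 67 calls (22 higher, 45 lower) was within 1.5 times under a pseudocount of 10 (66), no filter (66), median-ratio scaling (71), no trend (74) and the fit of the 4 libraries alone (49, of which 9 were among the 67, with 23 higher and 26 lower). Against the mean of the other 9 compounds 31 genes were called, 8 higher and 23 lower. With 1 library left out the count ranged from 14 to 61, with 5 to 26 higher and 7 to 35 lower. Without NC replicate 1 the balance turned, with 13 higher and 7 lower, and without OICR replicate 2 there were 14 calls. A fit with a replicate block called 274 genes, 67 higher and 207 lower, and held all 67. The numbers were not taken to pair the libraries, since 51 and not all of the 55 correlations of deviations between groups passed 0.1 (0.0535 to 0.298, and 0.0892 for OICR with NC). No called gene turned direction under any of the 11 alternatives. Gm24909 and Gm37676 were called under every one and 8 genes under at least 9. Of 418 values of named genes over the alternatives, 280 kept their direction and their call or lack of one, 131 lost the call and 7, all of genes not called, reversed. Without a call, Wdr5 and Pou5f1 passed the adjusted p in the replicate block fit (limma, 0.0313 and 0.0347), and Pou5f1 against the other compounds (0.0390). The 7 reversed values were log2 changes of Nanog, Sox2, Hsf1 and Col1a1. Nanog had -0.065 without OICR replicate 2 and -0.041 without NC replicate 1. Sox2 had -0.075 against the other compounds and -0.052 without NC replicate 2. Hsf1 had -0.017 without NC replicate 2. Col1a1 had -0.17 against the other compounds and -0.059 without OICR replicate 2. With 1 library left out, the log2 changes of these genes reached up to 0.39, 0.32, 0.091 and 0.16 in this order. The cause of the reversals was not tested. With 1 library left out, the lone library of a group was assumed to vary like the other groups. List medians kept their sign under all alternatives for 11 of 32 lists, among them the integrated stress response, p53, 2-cell, germline, basement membrane, primitive endoderm and ribosomal protein lists. That of the collagen maturation list was 0.03 against the other compounds. The depth of each library is unknown, and 2 libraries a group leave the spread to be shared over all 11 groups.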
